A study of Mus musculus with 30 samples.

Results

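The libraries described here are the 6 made from kidneys of male mice after nephrectomy (NX), the surgical removal of a kidney, without ischemia-reperfusion injury. They were chosen by their labels alone, from a series of 30 mouse kidney libraries. Of the 6, 3 carry the genotype wild type (WT) and 3 the genotype that the labels call Gsta2-H2BeGFP (TG). Of the 57133 genes counted, 17100 passed the filter on low counts and were tested. The other 24 libraries hold WT and TG kidneys of both sexes without surgery (3 per genotype and sex) and of males 4 hours after nephrectomy with ischemia-reperfusion injury (IRI, 6 per genotype). All were made from poly-A RNA of whole kidney, and they enter below only to show whether a genotype difference after NX was also measured elsewhere. The labels give neither the age or strain of the mice nor the promoter of the transgene. They also leave out the time between nephrectomy and collection, and which kidney was sampled. Nor do they tie the libraries to separate mice, and the p-values below therefore reflect the spread among the libraries, which may be technical. EGFP counts matched the genotype label in all 6 NX libraries. The exception in the series was the library labelled WT IRI replicate 1, with 2.81 CPM of EGFP, so values after IRI are given with and without it where a result rests on them.

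The enzyme made from Gsta2 belongs to the alpha class of glutathione S-transferases. Members of this class join glutathione to electrophiles such as lipid peroxidation products, and they bind bilirubin and steroids. The series title calls Gsta2 female-biased and places its raised expression in proximal tubule cells, the cells that reabsorb most of the glomerular filtrate and that are injured first by ischemia. After nephrectomy the remaining kidney takes over the work of both and its tubule cells enlarge. The labels do not say whether the libraries come from such remaining kidneys. The comparison of TG with WT after NX asks how the genotypes differed in kidneys of male mice with nephrectomy but no ischemia.

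Total counts ran from 59574069 to 91354407 in the NX libraries, and 20969 to 23153 genes had a count. The 25 proximal tubule markers were all measured and together held 58880 to 78720 CPM in the 6 libraries, and the 4 Y-linked genes looked up were measured in all of them. CPM is the usual depth-scaled count, here with TMM factors computed over the whole series, and the values of a group are given in the order of replicates 0, 1 and 2. Differences are log2 fold changes of TG against WT ± SE from edgeR, so positive values are higher in TG. A gene is called when its Benjamini-Hochberg adjusted p from edgeR is under 0.05, and calls by DESeq2 are named as such. WT replicate 0 stood apart on the first principal component of the 6 libraries, which held 32.2% of the variance, and TG replicate 2 on the second, which held 27.2%. The second also separated the genotypes, with the WT libraries at −13.51, −13.39 and −12.18 and the TG libraries at 9.32, 1.67 and 28.09.

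Of the 17100 genes, 2 were called (0.0117%), EGFP higher and Gm8730 lower in TG (0.00585% in each direction). An unadjusted p under 0.05 was reached by 1157 genes (6.77%), with 548 (3.2%) higher and 609 (3.56%) lower. When each library was left out in turn, these counts ran from 287 higher and 311 lower (without TG replicate 2) to 977 higher and 1051 lower (without WT replicate 0). They were 393 and 465 without TG replicate 0, and 461 and 416 without WT replicate 1. Without TG replicate 1 they were 615 and 645, and without WT replicate 2 they were 437 and 499. The counts of list members in these fits, given below, are to be read beside these. The groups did not overlap for 2113 genes (12.4%), with every TG library higher for 1128 (6.6%) and every TG library lower for 985 (5.76%). DESeq2, which estimates the spread differently, called 48 genes, 23 higher and 25 lower. Of these, 47 were in the edgeR fit, and their unadjusted edgeR p reached up to 0.00782. Both genes called by edgeR were also called in each of the 6 fits that left out a library. Neither was called in the fit of all 18 NX and IRI libraries (adjusted p = 0.554 for EGFP and 0.515 for Gm8730), and EGFP was not called with the replicate number as a block (adjusted p = 0.149). The fit of all 18 includes the library labelled WT IRI replicate 1, which has EGFP counts, and was not repeated without it. In edgeR the EGFP contrast after IRI had an adjusted p of 0.326 with that library and 0.0129 without it. Of all 17100 genes, 11955 (69.9%) had a 95% interval that lay within 2-fold in either direction, and 682 (3.99%) had an estimate of at least 2-fold. Of the 13440 with at least 1 CPM in the group where they were higher, these shares were 88.2% and 1.45%.

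**Figure D1:**
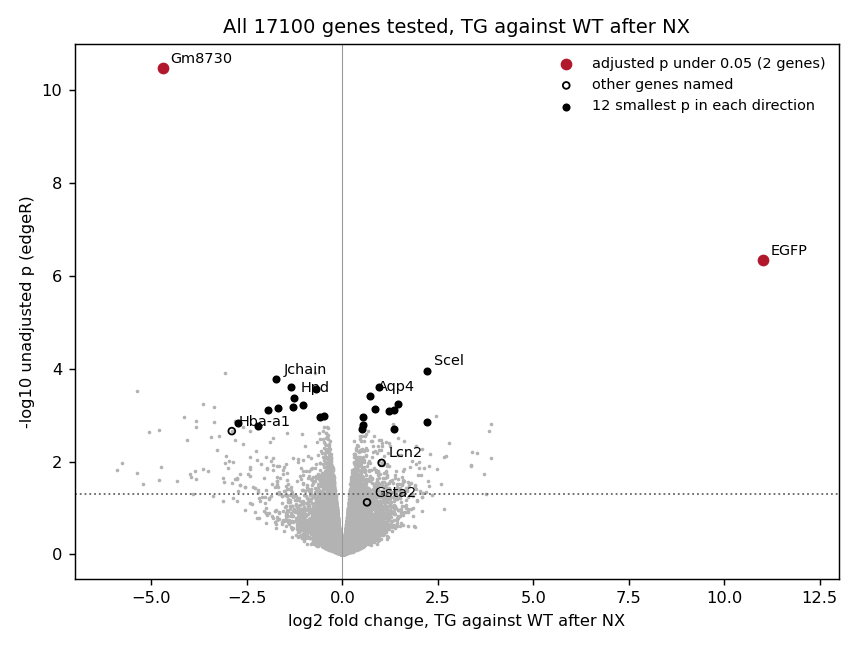
Each point is one of the 17100 genes tested, with its log2 fold change of TG against WT after NX on the x axis and the −log10 of its unadjusted edgeR p on the y axis. The 2 called genes are red, the 12 genes with the smallest p in each direction black, and the dotted line marks an unadjusted p of 0.05; Gm8730 and EGFP stand apart from all other genes.

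EGFP, the entry for the green fluorescent protein that the genotype name carries, had no count in the WT libraries and 3.39, 3.51 and 5.002 CPM in the TG libraries (202 to 348 counts). The TG mean of 3.97 ± 0.899 CPM (SD, n = 3) was at least 234-fold higher than the limit that a count of 0 allows, 3 counts over the WT group (adjusted p = 0.00394 by edgeR). The transgene entry thus separated the genotypes in every NX library.

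Gsta2 had 61.8, 87.0 and 81.6 CPM in WT and 79.0, 197.7 and 83.4 CPM in TG. TG replicate 1 held the high value, and the other TG libraries lay within the WT range. The difference was 0.64 ± 0.32 (95% interval −0.08 to 1.37, adjusted p = 0.749 by edgeR) and was 0.09 without TG replicate 1, so Gsta2 was not called. The males without surgery gave −0.92 ± 0.19 for the same contrast (adjusted p = 0.673), and the IRI libraries gave −0.14 ± 0.20 (adjusted p = 0.806; −0.19 without the library labelled WT IRI replicate 1). The difference between the contrast after NX and that without surgery was 1.56 ± 0.46 (adjusted p = 0.621).

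The counts of Gsta2 depend on reads that can be told from those of its neighbour Gsta1. Over the coding sequence, from GENCODE M21, Gsta2-201 and Gsta1-201 were identical at 655 of 669 aligned bases (97.9%), with a longest identical run of 196 bases. The stretch with the most differences is shown for both, from base 451 of Gsta2-201 and base 456 of Gsta1-201, with differing bases in capitals.
Gsta2: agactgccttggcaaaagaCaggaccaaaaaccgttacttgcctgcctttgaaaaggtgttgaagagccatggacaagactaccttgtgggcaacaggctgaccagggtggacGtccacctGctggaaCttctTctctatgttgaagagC
Gsta1: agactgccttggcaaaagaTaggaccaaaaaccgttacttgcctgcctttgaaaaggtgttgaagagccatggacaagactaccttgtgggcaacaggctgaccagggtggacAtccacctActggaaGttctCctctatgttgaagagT
How reads that match both genes were counted is not given in the sources used here. Gsta1 itself was far lower than Gsta2, with 0.232, 0.117 and 0.298 CPM in WT and 0.294, 1.29 and 0.374 CPM in TG, again highest in TG replicate 1 (1.57 ± 0.70, adjusted p = 0.733). Of the 7 alpha-class genes listed, 5 passed the filter and none was called. Gsta3 was highest in TG replicate 1 as well, at 144.2 CPM against 90.0 to 109.7 CPM in the other 5 libraries (0.08 ± 0.16, adjusted p = 0.939). Gm10639, a predicted member of the class, had 9.85 CPM there and 3.47 to 5.19 CPM elsewhere. Gsta4, which acts on lipid aldehydes, had 39.7 CPM in WT replicate 0 and 19.1 to 20.7 CPM in the other 5 libraries.

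**Figure D2:**
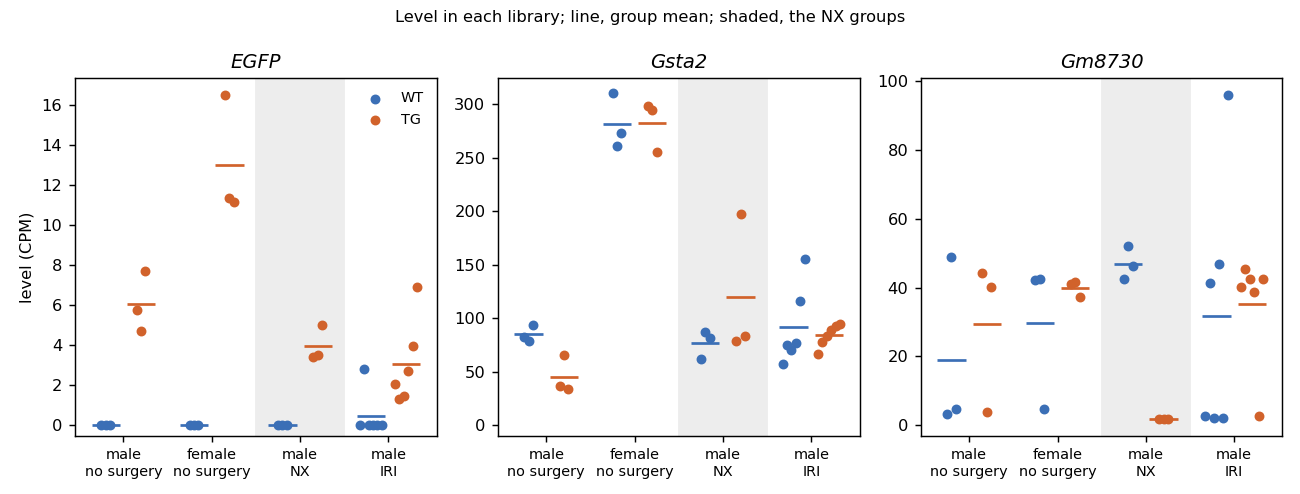
Levels in CPM of EGFP, Gsta2 and Gm8730 in each of the 30 libraries, grouped by sex and surgery, with WT in blue, TG in orange and a line at each group mean. After NX, EGFP is at 0 in WT and at 3.39 to 5.002 CPM in TG, Gsta2 has 1 high TG library at 197.7 CPM, and Gm8730 separates the genotypes only after NX, at 42.6 to 52.05 CPM in WT against 1.72 to 1.86 CPM in TG.

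Gm8730 was the only gene that edgeR called lower. GENCODE M21 lists it as a processed pseudogene, a copy of a spliced mRNA set back into the genome, and the deposited table places it on chromosome 8 of GRCm39 (103591477 to 103592430, minus strand, a single exon of 954 bases). It had 42.6, 52.05 and 46.3 CPM in WT and 1.86, 1.81 and 1.72 CPM in TG. The groups did not overlap, and the difference was −4.71 ± 0.13, or 26.1-fold (adjusted p = 5.88e-07 by edgeR). The sequence of Gm8730-201 matched the coding sequence of Rplp0-201 (bases 122 to 1075), the mRNA of a ribosomal stalk protein, at 942 of 954 bases (98.7%) with no gap. The stretch with the most differences is shown, from base 298 of Gm8730-201 and base 419 of Rplp0-201, with the 4 differing bases in capitals.
Gm8730: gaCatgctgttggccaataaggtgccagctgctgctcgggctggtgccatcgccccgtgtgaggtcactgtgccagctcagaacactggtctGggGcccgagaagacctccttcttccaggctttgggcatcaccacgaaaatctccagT
Rplp0: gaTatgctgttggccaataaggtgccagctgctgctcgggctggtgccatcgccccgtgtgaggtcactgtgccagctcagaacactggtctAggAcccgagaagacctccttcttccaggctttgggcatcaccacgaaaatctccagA
Rplp0 itself had 364.0, 439.8 and 376.8 CPM in WT and 397.9, 465.1 and 396.5 CPM in TG (0.09 ± 0.11, adjusted p = 0.884). A second copy, Rplp0-ps1 on chromosome 3 (94.1% identical), had 1.94, 1.04 and 1.84 CPM in WT and 0.068, 0.226 and 0.431 CPM in TG (−2.75 ± 0.61, adjusted p = 0.730).

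The level of Gm8730 did not follow genotype in the other groups. In males without surgery it was 3.31, 48.9 and 4.62 CPM in WT and 44.2, 3.8 and 40.3 CPM in TG. After IRI it ran from 2.05 to 96.1 CPM in WT and from 2.69 to 45.4 CPM in TG, so that both a low and a high level occurred in each genotype. Its difference was 0.63 without surgery (adjusted p = 0.968) and 0.14 after IRI (adjusted p = 0.961, and 0.23 without the library labelled WT IRI replicate 1). In all, 11 of the 30 libraries were at the low level and 19 at the high one, with a gap of 2.86 on the log2 scale between them. Such a gap, at least 4-fold with 3 or more libraries on each side, was found for 86 of the 17100 genes (0.503%) and for 6 of the 100 genes with the smallest p after NX. The 86 include genes that split by sex, such as Uty, or by injury, such as Fos, and so are not all like Gm8730. Of the 6, Cyp4a12a and Cyp2e1 were low in the 6 female libraries and high in the 24 male ones. The injury interaction, the difference between the genotype contrast after IRI and that after NX, was 4.86 ± 1.42 for Gm8730 (adjusted p = 0.380, and 0.351 without that library).

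Gsta2 lies on chromosome 9 of GRCm39 (78238300 to 78263070). Within 2 Mb of it 29 other genes were tested, and none was called. At an unadjusted p under 0.05, 2 were higher and none was lower, against 3.2 and 3.56% of all genes. The 2 were the predicted gene Gm19541 (0.96 ± 0.35) and Mto1, which modifies mitochondrial transfer RNA (0.26 ± 0.11). Around Gm8730, 17 other genes were tested and none had an unadjusted p under 0.05. The smallest p there belonged to Terb1, a meiotic telomere gene (−1.29 ± 0.75), and Pdp2, which activates pyruvate dehydrogenase (−0.23 ± 0.15).

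None of the 24 genes with a known symbol and the smallest p passed the adjusted threshold of edgeR, and their values are given as measurements. DESeq2 called 19 of the 24, all but Alb, Ppp1r9a, Cyp4a12a, Igkc and Rnase4. On the higher side the smallest p belonged to Scel, which encodes sciellin of the cornified envelope. It had 1.51, 2.04 and 0.947 CPM in WT and 8.53, 4.43 and 8.02 CPM in TG (2.22 ± 0.34, adjusted p = 0.419). The groups did not overlap, and TG replicate 1 was the lowest of the TG libraries. Prox1, a transcription factor of lymphatic endothelium and of medullary tubule cells, followed the same order, with 4.52, 7.44 and 4.03 CPM in WT and 12.8, 9.79 and 14.4 CPM in TG (1.21 ± 0.25, adjusted p = 0.640). Angpt2, a ligand of the endothelial receptor Tek, had 3.76, 4.40 and 2.05 CPM in WT and 9.58, 5.87 and 10.5 CPM in TG (1.34 ± 0.31, adjusted p = 0.730). The other 24 libraries, of both genotypes, had 4.34 to 18.6 CPM of Scel and 6.62 to 34.7 CPM of Angpt2. Each WT library after NX was thus below all of these for both genes. The TG libraries lay within these ranges, except TG replicate 1 for Angpt2. For Prox1 the other 24 ran from 1.985 to 29.75 CPM and took in both NX groups.

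Aqp4, the basolateral water channel of collecting duct principal cells, had 26.1, 26.4 and 21.7 CPM in WT and 35.4, 41.0 and 46.8 CPM in TG (0.73 ± 0.13, adjusted p = 0.605). Ptgds, a prostaglandin D synthase, had 3.58, 8.84 and 5.998 CPM in WT and 15.5, 14.7 and 16.4 CPM in TG (1.34 ± 0.27, adjusted p = 0.631). The same contrast for Ptgds was 1.01 ± 0.30 in males without surgery (adjusted p = 0.916) and −0.18 ± 0.28 after IRI (adjusted p = 0.823). Epha7, an ephrin receptor, differed by 1.45 ± 0.28, and the long noncoding RNA genes Halr1 and Panct2 by 0.97 ± 0.17 and 2.20 ± 0.49. Alb, which encodes serum albumin, differed by 0.54 ± 0.12 and Ppp1r9a, an actin-binding partner of protein phosphatase 1, by 0.52 ± 0.12.

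Sfi1, a centrosome gene, and Patz1, a zinc finger gene, complete the 12 on the higher side and lie near each other on chromosome 11. Sfi1 had 11.9, 8.09 and 11.2 CPM in WT and 18.3, 20.96 and 16.9 CPM in TG (0.84 ± 0.17, adjusted p = 0.631). Patz1 had 18.97, 19.2 and 22.5 CPM in WT and 27.1, 32.1 and 29.6 CPM in TG (0.55 ± 0.12, adjusted p = 0.70). In males without surgery, which share no library with the NX groups, the same contrasts were 0.64 ± 0.11 for Sfi1 and 0.48 ± 0.08 for Patz1 (adjusted p = 0.414 each). Females without surgery gave 0.67 ± 0.11 (adjusted p = 0.0545) and 0.27 ± 0.08 (adjusted p = 0.273). The IRI libraries gave 0.46 ± 0.17 (adjusted p = 0.283) and 0.36 ± 0.10 (adjusted p = 0.171). Without the library labelled WT IRI replicate 1 the latter were 0.62 ± 0.14 (adjusted p = 0.128) and 0.41 ± 0.10 (adjusted p = 0.142).

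Among the 12 on the lower side the smallest p belonged to genes of antibody-secreting cells. Jchain, which joins IgA and IgM into polymers, had 16.3, 21.8 and 33.3 CPM in WT and 9.49, 5.35 and 6.50 CPM in TG (−1.74 ± 0.28, adjusted p = 0.475). Igha, the constant region of IgA, had 61.2, 61.5 and 98.7 CPM in WT and 38.2, 24.4 and 23.9 CPM in TG (−1.36 ± 0.23, adjusted p = 0.513). Igkc, the kappa light chain constant region, differed by −1.68 ± 0.34, and the variable segment Igkv1-117 by −1.95 ± 0.39. Because 4 of the 12 genes were of this kind, all 61 immunoglobulin genes that were tested were then looked up, a choice made after their values were seen. Of these, 57 had a negative estimate, none was called by edgeR, 28 were lower in every TG library than in every WT library against 5.76% of all genes, and none was higher in every TG library. Of the 25 genes that DESeq2 called lower, 13 were immunoglobulin genes or Jchain. The summed level of the 61 genes was 121, 155.4 and 229.1 CPM in WT and 80.5, 51.7 and 50.8 CPM in TG. In males without surgery the sum was 77.2, 82.5 and 9.82 CPM in WT and 97.3, 26.4 and 36.7 CPM in TG. After IRI it ran from 49.3 to 423 CPM in WT and from 91.9 to 365.8 CPM in TG. The contrast of Jchain was −0.13 ± 0.67 without surgery and −0.18 ± 0.55 after IRI. Without the library labelled WT IRI replicate 1 the latter was −0.365 ± 0.546. All 61 genes were measured in the same libraries, so the 28 are not separate results. In the lymphocyte list the markers other than Jchain and Igkc had unadjusted p of 0.126 or more. In whole-kidney RNA, fewer cells of a type and less RNA per cell cannot be told apart.

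Hpd, an enzyme of tyrosine breakdown, had 118.6, 78.2 and 148.9 CPM in WT and 52.9, 54.3 and 35.8 CPM in TG (−1.28 ± 0.24, adjusted p = 0.605). Cyp4a12a, a male-biased cytochrome P450 that makes 20-HETE from arachidonic acid, had 672.9, 435.5 and 856.5 CPM in WT and 337.7, 267.3 and 196.2 CPM in TG (−1.30 ± 0.26, adjusted p = 0.631). In both genes every TG library was below every WT library. Degs2, a sphingolipid desaturase and hydroxylase, had 76.2, 77.1 and 82.5 CPM in WT and 57.1, 41.8 and 48.5 CPM in TG (−0.68 ± 0.12, adjusted p = 0.513). Prelp, a matrix proteoglycan, had 32.1, 23.4 and 25.8 CPM in WT and 17.3, 11.8 and 10.4 CPM in TG (−1.04 ± 0.20, adjusted p = 0.631). For Prelp the contrast was −0.83 ± 0.27 after IRI (adjusted p = 0.233) and 0.27 ± 0.29 without surgery (adjusted p = 0.940). The mitochondrial transfer RNA gene mt-Tp differed by −0.47 ± 0.10 and Ttc28, a gene of cytokinesis, by −0.59 ± 0.12. Rnase4, which encodes a secreted ribonuclease, had 4.32, 20.8 and 20.9 CPM in WT and 3.98, 2.41 and 3.44 CPM in TG (−2.22 ± 0.50, adjusted p = 0.730), so 2 of the 3 WT libraries held its high level.

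**Figure D3:**
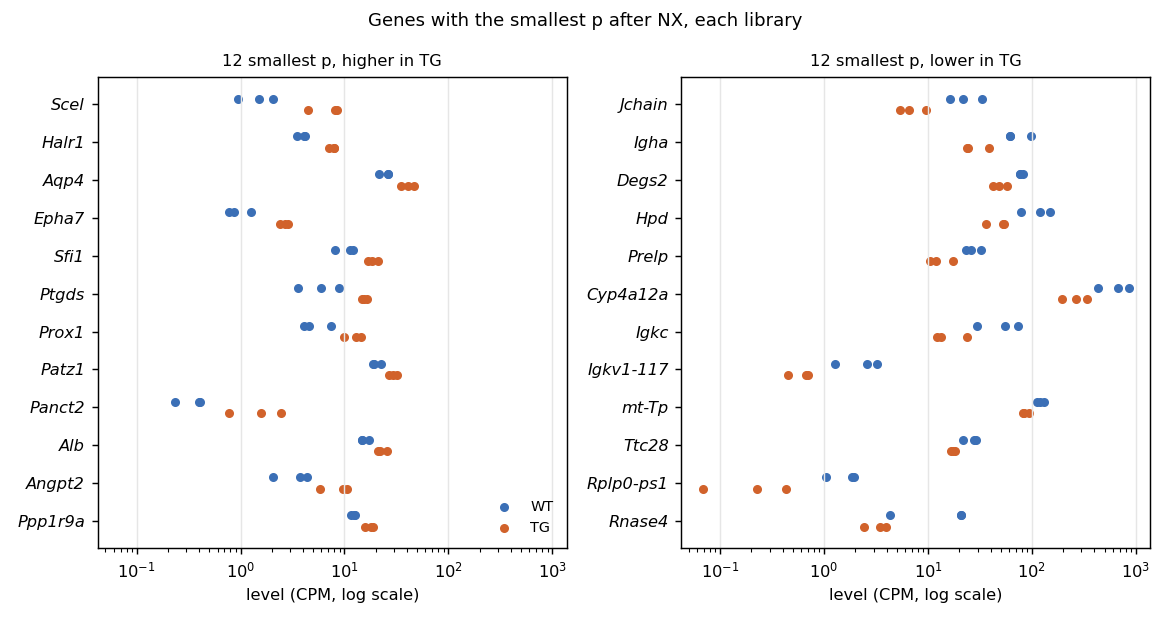
Levels in CPM, on a log scale, of the 12 genes with the smallest p on each side in the 6 NX libraries, WT in blue and TG in orange. For every one of the 24 genes the TG points lie on one side of the WT points, and for Rnase4 WT replicate 0 lies beside the TG libraries.

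The tubule segments were compared through marker lists. The 12 markers of the thin and thick ascending limb had a median difference of 0.33, with 11 of 12 above 0, against a median of 0.00 over all genes tested. Neither edgeR nor DESeq2 called any of them. At an unadjusted p under 0.05, 2 were higher, against 3.2% of all genes (0 without TG replicate 2, 6 without TG replicate 1). Slc12a1, the Na-K-2Cl cotransporter of the thick limb, had 836.8, 1141 and 1031 CPM in WT and 1566, 1049 and 1526 CPM in TG (0.46 ± 0.17, adjusted p = 0.730), so TG replicate 1 lay within the WT range. Ptger3, a prostaglandin E2 receptor, had 47.1, 45.9 and 47.7 CPM in WT and 69.7, 45.3 and 102.3 CPM in TG (0.63 ± 0.24, adjusted p = 0.730), with the same TG library low. The median over the list was 0.25 to 0.47 when each library was left out in turn. The 9 measured collecting duct principal cell markers had a median of 0.11, and beside Aqp4 the smallest p belonged to Elf5, a transcription factor of these cells (0.86 ± 0.35).

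Proximal tubule markers had a median of −0.18, and 20 of 25 were below 0. The smallest p belonged to Ass1, of arginine synthesis (−0.32 ± 0.13, adjusted p = 0.730), and Slc5a2, the glucose transporter SGLT2 (−0.39 ± 0.17, adjusted p = 0.733). Of 22 organic ion and drug transporters, 5 were lower and 1 higher at an unadjusted p under 0.05, with a median of −0.22. Of all genes, 3.56% were lower and 3.2% higher at that p. The 5 became 0 without WT replicate 1 or TG replicate 2 and 9 without WT replicate 0. The 2 with the smallest p were Slco4c1, which had 17.7, 12.4 and 17.96 CPM in WT and 39.6, 15.3 and 52.7 CPM in TG (1.16 ± 0.37), and Slc22a18, an orphan cation transporter, which had 572.5, 854.1 and 710.7 CPM in WT and 533, 571.4 and 467.3 CPM in TG (−0.44 ± 0.14). Slco4c1 was thus high in TG replicates 0 and 2 only, as Slc12a1 and Ptger3 were. Summed proximal tubule markers were 63250, 78720 and 73150 CPM in WT and 66480, 58880 and 62380 CPM in TG, and those of the ascending limb were 4195, 5755 and 5251 CPM in WT and 6127, 4773 and 6855 CPM in TG. The part of these segment levels in the single-gene differences was not tested.

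Genes that react to or remove oxidants were compared because the transgene concerns a glutathione transferase. Of the 17 measured targets of NRF2, the transcription factor that senses electrophiles, none was called (median −0.13). At an unadjusted p under 0.05, 4 were lower, against 3.56% of all genes. The count was 2 without WT replicate 0 or TG replicate 2 and 6 without TG replicate 0. Pgd, an enzyme of the pentose phosphate pathway, had 153.7, 152.7 and 137.6 CPM in WT and 116.8, 123.3 and 109.5 CPM in TG (−0.35 ± 0.09, adjusted p = 0.730). Tkt, of the same pathway, had 399.2, 303.9 and 267.4 CPM in WT and 214.0, 247.0 and 211.4 CPM in TG (−0.53 ± 0.15, adjusted p = 0.730). WT replicate 0, the highest for Tkt, also held 1728 CPM of summed adipocyte markers against 59.5 to 99.4 CPM in the other 5 libraries, and the part of those cells was not tested. The other 2 of these 4, G6pdx (−0.38 ± 0.14) and Taldo1 (−0.21 ± 0.09), belong to that pathway too and were named after their values were seen. The detoxifying target Nqo1 differed by −0.22 ± 0.10 and Hmox1, a haem oxygenase, by −0.20 ± 0.20. The 18 other glutathione S-transferases had a median of −0.06, with the smallest p at Gstt2 (−0.47 ± 0.14) and Gstm4 (−0.45 ± 0.15). The 23 peroxidases and antioxidant enzymes had a median of −0.10, and 6 of them were lower in every TG library than in every WT library, against 5.76% of all genes. Only 1 of the 23 was lower at an unadjusted p under 0.05, against 3.56% of all genes. That count ran from 0 without TG replicate 2 to 3 without TG replicate 1.

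Male-biased kidney genes had a median of −0.15 over 18 members, with 3 lower at an unadjusted p under 0.05, against 3.56% of all genes. The 3 became 2 without WT replicate 1 and 5 without TG replicate 0. Cyp2e1, which oxidises small solvents, had 2296, 3406 and 3300 CPM in WT and 2102, 1931 and 1809 CPM in TG (−0.62 ± 0.15, adjusted p = 0.730). Female-biased genes had a median of 0.25 over 12 members, Gsta2 among them, with 4 higher at that p, against 3.2% of all genes. The 4 became 2 without WT replicate 1 and 5 without TG replicate 0 or 2. Without TG replicate 1 the medians were 0.08 for the male-biased and 0.01 for the female-biased list. Slc7a12, an amino acid transporter, had 2.45, 2.23 and 4.26 CPM in WT and 3.02, 18.01 and 17.2 CPM in TG (2.09 ± 0.58, adjusted p = 0.730). Prlr, the prolactin receptor, had 6.56, 6.62 and 8.23 CPM in WT and 7.20, 20.96 and 30.4 CPM in TG (1.45 ± 0.42, adjusted p = 0.730). Both were at the WT level in TG replicate 0. Without that library they were called, 2 of the 6 genes called in that fit. Cyp4a14, a fatty acid hydroxylase, had 17.1, 32.3 and 44.6 CPM in WT and 19.9, 1153 and 49.3 CPM in TG, so its difference rested on TG replicate 1. That library also held the highest Gsta2 and the lowest summed male-biased genes, 23890 CPM against 31760 to 38420 CPM in the other 5.

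Of 13 mitochondrially encoded transcripts all had a negative estimate and none was called (median −0.37). At an unadjusted p under 0.05, 5 were lower, against 3.56% of all genes. The 5 became 0 without WT replicate 0, TG replicate 1 or TG replicate 2, and 11 without WT replicate 1. The 2 with the smallest p, mt-Nd4 and mt-Nd4l, encode subunits of complex I. mt-Nd4 had 20340, 14380 and 15240 CPM in WT and 13260, 12230 and 13300 CPM in TG (−0.37 ± 0.15, adjusted p = 0.730). mt-Nd4l had 1228, 740.2 and 761.9 CPM in WT and 635.9, 684.0 and 676.7 CPM in TG (−0.46 ± 0.19, adjusted p = 0.730). WT replicate 0 was the highest in both, and without it the median over the list was −0.17. The mitochondrial share of all counts was 13.6, 8.53 and 10.7% in WT and 9.36, 8.64 and 9.51% in TG. The 28 nuclear-encoded respiratory chain subunits had a median of −0.12, with the smallest p at Cox4i1 (−0.24 ± 0.09) and Ndufb5 (−0.17 ± 0.09). Of these, 10 were lower in every TG library than in every WT library, against 5.76% of all genes. Only 1 was lower at an unadjusted p under 0.05, against 3.56% of all genes. That count was 2 without WT replicate 0 and 0 without TG replicate 0, WT replicate 1 or TG replicate 2. Cytosolic ribosomal protein genes had a median of −0.16 over 32 members. At an unadjusted p under 0.05, 6 were lower, against 3.56% of all genes, with Rpl27 (−0.39 ± 0.10) and Rps14 (−0.36 ± 0.10) first. The 6 became 2 without TG replicate 0, WT replicate 1 or TG replicate 2, and 12 without TG replicate 1.

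**Figure D4:**
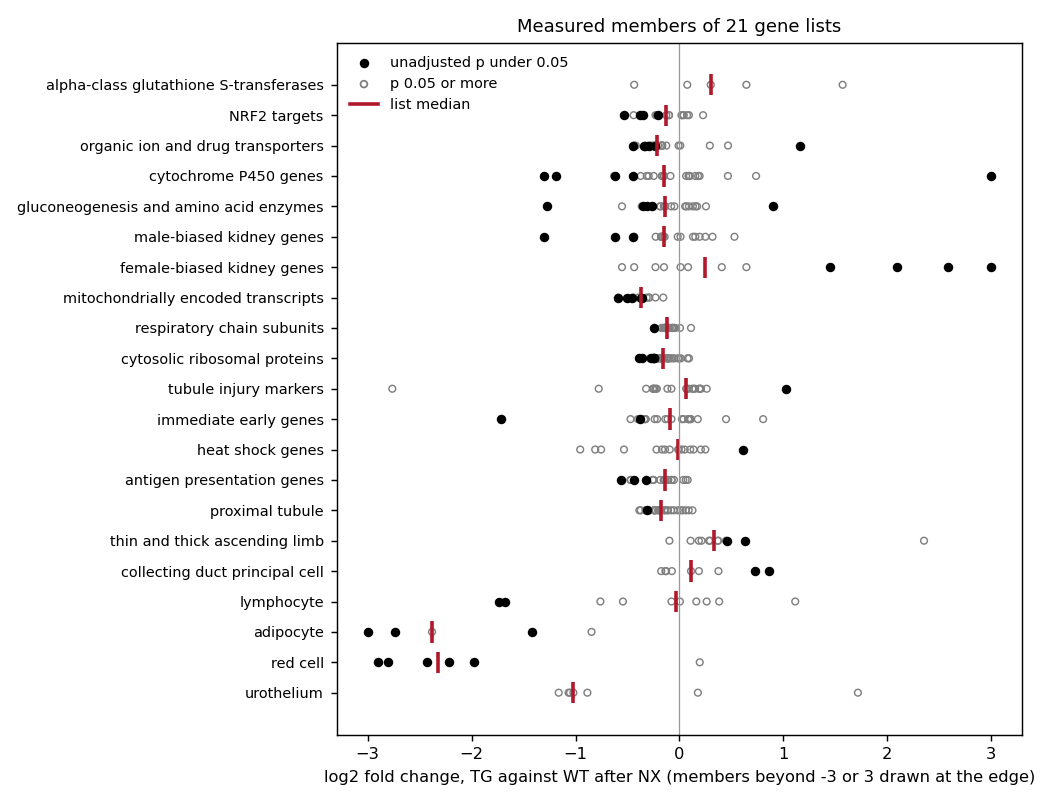
Log2 fold changes of TG against WT after NX for the measured members of 21 gene lists, 1 point per gene, filled where the unadjusted edgeR p was under 0.05, with the list median in red. Medians lie between −0.37 and 0.33 except for the adipocyte, red cell and urothelium markers, and edgeR called no member of these lists, while DESeq2 called 5 (Aqp4, Cyp2e1, Hbb-bt, Hpd and Jchain).

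Of the markers of tubule injury and early stress, edgeR called none. Havcr1, which encodes the injury marker KIM-1, had 1.56, 0.402 and 1.23 CPM in WT and 1.29, 0.660 and 0.604 CPM in TG (−0.32 ± 0.53, adjusted p = 0.919). Lcn2, which encodes the iron-binding protein NGAL, had 0.928, 1.41 and 0.737 CPM in WT and 2.15, 2.43 and 1.70 CPM in TG (1.03 ± 0.32, adjusted p = 0.730), with no overlap. Krt20 had 4.74 CPM in WT replicate 0 and 0.070 to 0.417 CPM in the other 5 libraries, and its estimate changed from −2.76 ± 1.36 to 1.505 when that library was left out. Over the 21 measured injury markers the median was 0.06. Fos, the AP-1 subunit, had 0.497, 0.335 and 0.386 CPM in WT and 0.249, 0.208 and 0.575 CPM in TG (−0.24 ± 0.56, adjusted p = 0.941). Of the 22 immediate early genes, Jund (−0.38 ± 0.13) and Nr4a3 (−1.72 ± 0.76) had the smallest p. Hspa1a, an inducible chaperone, had 89.5 CPM in WT replicate 1 and 7.20 to 36.5 CPM in the other 5 libraries (−0.81 ± 0.83, adjusted p = 0.861). Among the heat shock genes Cryab had the smallest p, with 32.5, 55.2 and 38.1 CPM in WT and 65.8, 57.3 and 68.7 CPM in TG (0.61 ± 0.18, adjusted p = 0.730), followed by Hspb8 (−0.96 ± 0.44). Cdkn1a, the p53 target p21, and Gdf15, a stress cytokine, differed by −0.25 ± 0.36 and −0.06 ± 0.27.

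Genes of MHC class I presentation were among those with small p on the lower side. Of 19 antigen presentation genes, 3 were lower at an unadjusted p under 0.05 (3.56% of all genes) and 6 were lower in every TG library than in every WT library (5.76% of all genes), with a median of −0.14. H2-T23 had 63.5, 73.6 and 69.4 CPM in WT and 57.6, 47.6 and 47.6 CPM in TG (−0.44 ± 0.11, adjusted p = 0.730). H2-K1 had 142.5, 148.7 and 150.4 CPM in WT and 121.4, 121.1 and 111 CPM in TG (−0.32 ± 0.08, adjusted p = 0.730). Without TG replicate 2 the median of the list was −0.35 and 8 genes were lower at that p, and for the other leave-outs the median lay between −0.19 and −0.07. The 19 circadian clock genes had a median of −0.17, with 7 above 0. At an unadjusted p under 0.05, 2 were higher (3.2% of all genes) and none was lower, while 0 were higher without TG replicate 2, 1 without TG replicate 0, WT replicate 0 or WT replicate 1, and 5 were lower without WT replicate 0. Arntl, which encodes the activator BMAL1, had 0.431, 0.787 and 0.684 CPM in WT and 1.20, 1.06 and 1.94 CPM in TG (1.14 ± 0.39, adjusted p = 0.730), and its partner Clock differed by 0.22 ± 0.09.

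Markers of cells outside the tubule varied by library. Red cell markers had a median of −2.33, with 5 of 6 lower at an unadjusted p under 0.05 and none called by edgeR. Of all genes, 3.56% were lower at that p. The 5 became 3 without TG replicate 1 or WT replicate 2. DESeq2 called Hbb-bt, a beta globin gene (adjusted p = 0.0379). Hba-a1, an alpha globin gene, had 15.2, 17.5 and 61.5 CPM in WT and 8.36, 2.29 and 1.87 CPM in TG (−2.90 ± 0.69, adjusted p = 0.730). Hbb-bs, a beta globin gene, had 22.4, 18.9 and 61.2 CPM in WT and 10.5, 2.64 and 1.41 CPM in TG (−2.80 ± 0.71, adjusted p = 0.730). The median of the red cell list was −1.29 in males without surgery and −2.88 after IRI. For Hba-a1 the contrast was −1.30 ± 0.74 in males without surgery (adjusted p = 0.922) and 0.40 ± 0.75 in females (adjusted p = 0.932). After IRI it was −3.045 ± 0.54 (adjusted p = 0.0604). Without the library labelled WT IRI replicate 1 the latter was −3.12 (adjusted p = 0.0636). In the NX libraries the summed red cell markers and the summed immunoglobulin genes were both highest in WT replicate 2. Both were lower in each TG library than in each WT library. Adipocyte markers summed to 1728 CPM in WT replicate 0 and to 59.5 to 99.4 CPM in the other 5 libraries. Urothelium markers summed to 56.9, 4.07 and 0.403 CPM in WT and 22.4, 7.14 and 11.8 CPM in TG. Neutrophil markers summed to 0.712 to 1.37 CPM over the 6 libraries. The part of these other cell types in the genotype differences was not tested. The estimate of the adipocyte median changed from −2.38 to 0.65 without WT replicate 0, and that of the urothelium from −1.02 to 3.16.

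**Figure D5:**
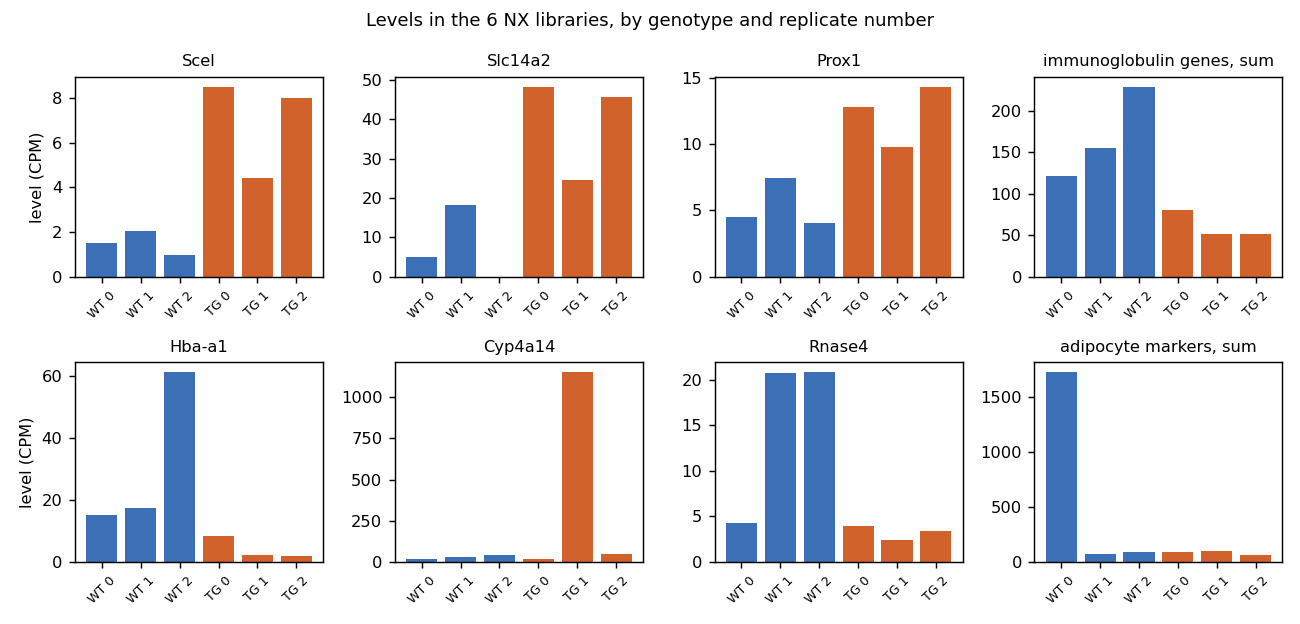
Bars give the level in CPM in each of the 6 NX libraries, WT in blue and TG in orange, for Scel, Slc14a2, Prox1, the summed immunoglobulin genes, Hba-a1, Cyp4a14, Rnase4 and the summed adipocyte markers. The first 5 separate the genotypes, whereas Cyp4a14 is high in TG replicate 1 alone, Rnase4 in WT replicates 1 and 2, and the adipocyte markers in WT replicate 0.

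Whether the genotype difference after NX differed from that under other conditions was tested gene by gene. For the injury interaction (IRI against NX, 18 libraries) edgeR called none of 19264 genes, 1848 (9.59%) had an unadjusted p under 0.05, and DESeq2 called 46. For the surgery interaction (NX against no surgery in males, 12 libraries) edgeR called none of 18760 genes, 1397 (7.45%) had an unadjusted p under 0.05, and DESeq2 called 13. Scel had the smallest p on the higher side after NX among the genes that edgeR did not call. It differed by −0.49 ± 0.31 without surgery and by −0.02 ± 0.27 after IRI. Its interactions were 2.702 ± 0.57 for surgery (adjusted p = 0.621) and −2.23 ± 0.50 for injury (adjusted p = 0.376). Without the library labelled WT IRI replicate 1, the injury interaction of Scel was −2.27 ± 0.52 (adjusted p = 0.351), and edgeR again called none of the genes for this interaction. After IRI edgeR called 12 of 17111 genes (0.0701%), and 8 without that library. Havcr1 was among the 12, at 2.18 ± 0.37 (adjusted p = 0.0435), but was not called without that library (2.19 ± 0.41, adjusted p = 0.0659). After NX it differed by −0.32 ± 0.53, and the test of the difference between these contrasts gave 2.501 ± 0.69 (adjusted p = 0.376).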

How the data were processed

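Poly-A RNA of whole kidney was sequenced as paired reads, per the labels. Trimming with fastp 0.23.2 and alignment with STAR 2.7.0, both before deposit, are named in the submitters' processing notes together with the build GRCm39. The authors' counts are whole numbers of reads over the exons of a gene, made with featureCounts 2.0.3 per the file headers, and the annotation held an EGFP entry. Settings for strand, pairs and multiply mapped reads are not given in the sources used here. Of the counts of 10 or more in an NX library 38.5 to 41.3% were odd. GENCODE M21 gave a symbol for 51880 of 57133 identifiers (90.8%).

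The 6 NX libraries were compared with the two-sided quasi-likelihood test (edgeR 4.0.16, R 4.3.3, TMM, filterByExpr, Benjamini-Hochberg adjustment over all genes tested). SE is the unshrunken log2 fold change over the root of F, and intervals use the test's degrees of freedom. The injury interaction used the 18 NX and IRI libraries and the surgery interaction the 12 male NX and no-surgery libraries, which lie in separate count tables. CPM use TMM factors over all 30 libraries. Where a group had no count, the fold is against 3 counts over the group, for counting error only. Alternatives were other scaling and filters, DESeq2 1.42.0, limma 3.58.1 (voom with sample weights), halved counts, robust fitting, a replicate block, all 18 libraries, and leaving out each NX library or the library labelled WT IRI replicate 1. The test was also run on simulated counts, whose outcome is not given, and no result here rests on that run. No 2 NX libraries were copies of each other (chi-square at least 43.18 per degree of freedom).

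The comparison, the 51 gene lists and the rules were chosen with earlier results of these data known. Named genes are Gsta2, EGFP and the alpha class, the called genes, the 12 smallest p in each direction with a symbol other than a predicted-gene name and a mean of 1 CPM or more in one genotype, Havcr1, Lcn2, Krt20, Fos, Hspa1a, Cdkn1a and Gdf15, and the 2 smallest p of a list described. Lists are given as counts and medians without a set test. The immunoglobulin genes, a list of 16 medullary genes, pseudogene partners, genes called when a library is left out and other members of lists were chosen after their values were seen.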

Additional observations from a re-analysis of the deposited data

Results flagged for a closer look

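After IRI the pseudogene Gm8730 had 2.69 CPM in TG replicate 4, while the other 5 TG libraries had 38.8 to 45.4 CPM, so that this library stood far from the rest of its group. EGFP had 2.81 CPM in the library labelled WT IRI replicate 1 and no count in the other 5 WT libraries of its group. By the rule used here chance marks about 1 group in 20 where values are spread normally. That rate does not hold for Gm8730, which had a low and a high level over the series. Nor does it hold for EGFP, which had no count in the rest of its group.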

How the results depend on the processing

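The count of 2 genes called after NX became 127 without a filter on low counts (36 higher, 91 lower), 48 with DESeq2 and 0 in the fit of all 18 NX and IRI libraries, where EGFP was at 11.02 (adjusted p = 0.554) and Gm8730 at −4.70 (adjusted p = 0.515). The fit of all 18 included the library labelled WT IRI replicate 1, which has EGFP counts. Leaving out 1 library gave 2 to 15 genes, 15 without WT replicate 0, 6 without TG replicate 0, 6 without WT replicate 1 and 5 without TG replicate 1. Leaving out 1 NX library gave 0 to 1 genes for the injury interaction (1 without TG replicate 1) and 0 to 5 for the surgery interaction (5 without WT replicate 0, 4 without WT replicate 1, and 1 without TG replicate 0 or 1). DESeq2 called 46 and 13 genes for these interactions, and no filter gave 39 for the surgery interaction. The cause of these changes was not tested.

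With the replicate number as a block, 1 gene was called, Gm8730, and EGFP was at 11.01 (adjusted p = 0.149), while Gsta2 was at 0.52. The block called no gene in either interaction. Same-numbered WT and TG libraries deviated together with correlations of 0.17, 0.157 and 0.039, so the numbers are not taken to pair the samples. Each TG library correlated best with the WT library of its number, but WT replicate 2 correlated better with TG replicate 1 (0.062).

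Of 816 single-gene values under alternatives, EGFP and Gsta2 aside, 740 kept direction and side of the threshold, 59 passed it in addition, 1 no longer passed and 16 changed direction. With voom these were Gsta3 (−0.004), Gm10639 (−0.075), Krt20 (0.31) and Cdkn1a (0.19). Over the leave-outs, Gsta3 ran from −0.15 (without TG replicate 1) to 0.21, Gm10639 from −0.35 (TG 1) to 0.56, Gdf15 from −0.28 to 0.13 (WT 1) and 0.14 (TG 1), Krt20 from −3.33 to 1.505 (WT 0), Havcr1 from −0.75 to 0.075 (WT 0), Fos from −0.82 to 0.015 (TG 1), Cdkn1a from −0.54 to 0.34 (WT 0), Hspa1a from −1.48 to 0.98 (WT 1) and Eno1 from −0.093 (TG 1), −0.024 (WT 0) and −0.009 (WT 2) to 0.21. List medians under scaling and leave-outs were added after the data were seen. The width of a gene's 95% interval sets which differences these libraries can show.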

Other observations

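The genes with small p on the higher side included several that mark the medulla, and a list of 16 medullary water, urea and osmolyte genes was therefore looked up after the values were seen. Of these, 15 were tested, none was called by edgeR, and DESeq2 called Aqp4 (adjusted p = 0.00129). A positive estimate was found for 13 of the 15, against 8538 of all 17100 genes, and the median was 0.31. The list holds Aqp4, one of the 12 genes with the smallest p on the higher side. Its counts are therefore not separate from the values that prompted it. Slc14a2, the urea transporter of the inner medullary collecting duct and thin limb, had 5.04, 18.2 and 0 CPM in WT and 48.3, 24.4 and 45.6 CPM in TG (2.35 ± 1.05, adjusted p = 0.733). The WT library listed at 0 was replicate 2, and the 12 no-surgery libraries, from a separate count table, had 50 to 181.8 CPM. Slc14a1, the urea transporter of the descending vasa recta and red cells, had 2.02, 2.24 and 0.772 CPM in WT and 4.42, 2.92 and 3.13 CPM in TG (1.05 ± 0.38, adjusted p = 0.730). Slc6a12, the betaine transporter, had 1.03, 2.28 and 0.5262 CPM in WT and 2.67, 1.39 and 5.10 CPM in TG (1.26 ± 0.58). Wnt11, a ligand of the ureteric tip and collecting duct, had 0.199, 0.201 and 0.0702 CPM in WT and 0.926, 0.834 and 0.834 CPM in TG (2.44 ± 0.52, adjusted p = 0.70). Ppl, which encodes periplakin, had 4.89, 6.599 and 3.84 CPM in WT and 14.6, 7.48 and 9.66 CPM in TG (1.05 ± 0.27, adjusted p = 0.730). DESeq2 called Wnt11 and Ppl. The other 24 libraries had 0.276 to 5.77 CPM of Wnt11 and 10.95 to 47.7 CPM of Ppl, above each WT library after NX. For Ppl they were also above TG replicates 1 and 2. Their ranges for Slc14a2 (15.7 to 181.8 CPM) and Aqp4 (12.55 to 173.6 CPM) overlapped the WT libraries after NX. For Scel, Slc14a2, Prox1, Angpt2 and Ppl the lowest WT library was replicate 2 and the lowest TG library replicate 1. Aqp2, the apical water channel of the whole collecting duct, differed by 0.19 ± 0.19 and Akr1b3, which makes sorbitol, by −0.24 ± 0.17. Aqp3 differed by −0.14 ± 0.08, with 111.7, 125.3 and 119 CPM in WT and 111.6, 107.5 and 105.2 CPM in TG. Aqp1 differed by 0.06 ± 0.11 and Slc6a6 by 0.002 ± 0.17. Of the 15 genes, 4 were higher in every TG library than in every WT library (6.6% of all genes). In the other direction there was 1, Aqp3 (5.76% of all genes). The part of the share of medulla in these samples was not tested.

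Leaving out 1 library brought up small sets of genes whose level was low or high by library, and several lie near each other. On chromosome 1 of GRCm39, between 87952933 and 88146726, lie Gm15375 and the glucuronosyltransferase genes Ugt1a10 and Ugt1a9. Ugt1a9 had 6.41, 8.83 and 6.56 CPM in WT and 0.0339, 9.39 and 0.158 CPM in TG. Ugt1a10 had 50.4, 68.7 and 69.5 CPM in WT and 1.33, 146.3 and 2.01 CPM in TG. Both were thus high in all WT libraries and in TG replicate 1, and they were called only in the fit without that library. The genes of this locus share exons, so their counts are uncertain. In the 12 no-surgery libraries Gm15375 had no count.

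On chromosome 14, between 51328534 and 51355264, lie Rnase4, Ang and Eddm3b, and Slc7a7, an amino acid exchanger subunit, starts at 54606899. Ang, which encodes angiogenin, had 0.530, 3.32 and 2.74 CPM in WT and 0.610, 0.538 and 0.647 CPM in TG. Eddm3b had 0.480, 15.7 and 11.5 CPM in WT and 1.19, 0.886 and 0.748 CPM in TG. Slc7a7 had 222.7, 382.4 and 358.8 CPM in WT and 217.2, 232.6 and 197.2 CPM in TG. All 4 were high in WT replicates 1 and 2 and were called without WT replicate 0. After IRI, Rnase4 ran from 2.88 to 24.6 CPM in WT and from 2.84 to 40.6 CPM in TG, whereas the no-surgery males had 3.77 to 5.50 CPM.

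Another set was high in WT replicates 0 and 2 and called without WT replicate 1. Angptl7, an angiopoietin-like secreted protein gene, had 136.5, 22.7 and 160.9 CPM in WT and 21.6, 11.98 and 19.7 CPM in TG, and Fam213b, a prostamide synthase gene, had 63.2, 14.5 and 65.2 CPM in WT and 12.9, 14.9 and 12.9 CPM in TG. Both lie on chromosome 4, at 148579640 and 154979961, on either side of Eno1, the enolase gene, at 150321178. Eno1b on chromosome 18 had 61.6, 1.005 and 63.9 CPM in WT and 1.20, 2.01 and 1.38 CPM in TG, and Gm4735 on chromosome 2 had 58.2, 3.72 and 63.6 CPM in WT and 2.19, 3.99 and 2.67 CPM in TG. Their transcripts matched the coding sequence of Eno1-201 at 97.5 and 97.7% of aligned bases, and reads shared between such copies make their counts uncertain. Eno1 itself had 963.3, 1337 and 1001 CPM in WT and 972.3, 1372 and 1085 CPM in TG. In the no-surgery groups Eno1b stayed between 1.25 and 3.78 CPM, and after IRI it reached 53.4 CPM in WT and 56.6 CPM in TG.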
